A study of Mus musculus with 12 samples.

Results

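The cells of small brain blood vessels were followed through 42 genes in RNA sequencing of mouse dorsal hippocampus. The genes were taken by symbol from the count files: 30 are best known from endothelium, 7 from pericytes and 5 from smooth muscle. They are 42 of the 24421 gene rows, and all 42 were among the 15622 genes that passed the filter on low counts. The 12 libraries came from the dorsal hippocampus of male mice of the 129sv/C57BL/6j strain, 4 to 5 months old. Each library title carries a number of its own, but the labels do not say that each was a separate animal, so p-values measure the spread between these libraries. There were 4 groups of 3: Mbnl2 KO mice after training, Mbnl2 KO house controls, Mbnl2 WT mice after training, and Mbnl2 WT house controls. Mbnl2 encodes an RNA-binding regulator of splicing; the labels do not describe the KO allele or what the training consisted of. Levels are in CPM, read counts as a share of the library's total after scaling by the trimmed mean of M-values (TMM). A gene was called where its p from the quasi-likelihood test of edgeR, adjusted by Benjamini-Hochberg over all 15622 genes, was under 0.05.

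Endothelial cells line every vessel of the brain. In its capillaries they are sealed by claudin-5 junctions and carry transporters that feed the tissue or return foreign compounds to the blood, which together make the blood-brain barrier. Pericytes are wrapped around capillaries and kept there through platelet-derived growth factor signalling to PDGFRβ, and contractile smooth muscle cells surround the arterioles. All of these cells are a minority in hippocampus, and their transcripts are read here from whole tissue.

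Total counts per library ran from 19737929 to 27427076, at which 3 counts correspond to 0.105 to 0.154 CPM. The gene-level Mbnl2 count did not check the KO label, since it was higher in the libraries labelled KO, at 454 to 542 CPM, than in those labelled WT, at 315 to 365 CPM. The libraries also differed in markers of tissue next to the hippocampus. The summed level of 15 choroid plexus epithelium markers was between 55.0 and 119 CPM in 4 libraries (KO trained 1, KO house control 2, WT trained 2 and WT house control 1) and between 2300.0 and 15644 CPM in the other 8. The summed level of 12 thalamus markers was 626 CPM in KO house control 3, 593 CPM in WT house control 2 and 723 CPM in WT house control 3, and at most 425 CPM in the others. That of 12 striatum and septum markers was 1614 CPM in KO trained 2, 1239 CPM in KO house control 2 and 1097 CPM in WT house control 3, and at most 439 CPM in the others. The training medians are therefore also given without the 3 house controls rich in thalamus transcripts and without the 2 KO libraries rich in striatum transcripts.

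The defining markers of each cell type were present in all 12 libraries. Over these libraries the level per transcript length, as CPM per kilobase of exon (RPKM), was 23.6 ± 5.90 (SD, n = 12) for Cldn5, the claudin of the brain endothelial tight junction. It was 2.93 ± 0.504 for Pecam1, which encodes the adhesion protein CD31, and 3.55 ± 0.648 for Cdh5, which encodes VE-cadherin of the adherens junction. Among pericyte genes it was 4.92 ± 1.06 for Pdgfrb, the growth factor receptor, and 9.18 ± 1.01 for Rgs5, a regulator of G-protein signalling. Among smooth muscle genes it was 5.70 ± 2.18 for Acta2, the smooth muscle actin, and 2.92 ± 1.60 for Tagln, which encodes transgelin. The order of RPKM over all 42 was led by Bsg at 257 ± 66.7, Slc2a1 at 33.0 ± 3.65 and Vtn at 31.9 ± 8.76. The RPKM of Slc2a1, which encodes the glucose transporter GLUT1, and that of Vtn, which encodes vitronectin, did not differ from each other beyond their spread. At the other end Cnn1, which encodes the contractile protein calponin, had 0.109 ± 0.0715 RPKM from 1 to 14 counts per library. No fold is read from it alone, but it is included in the medians and in the counts of lower values. Bsg encodes basigin, a partner of monocarboxylate transporters that many cell types make, so its level is not an endothelial measure alone.

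**Figure D1:**
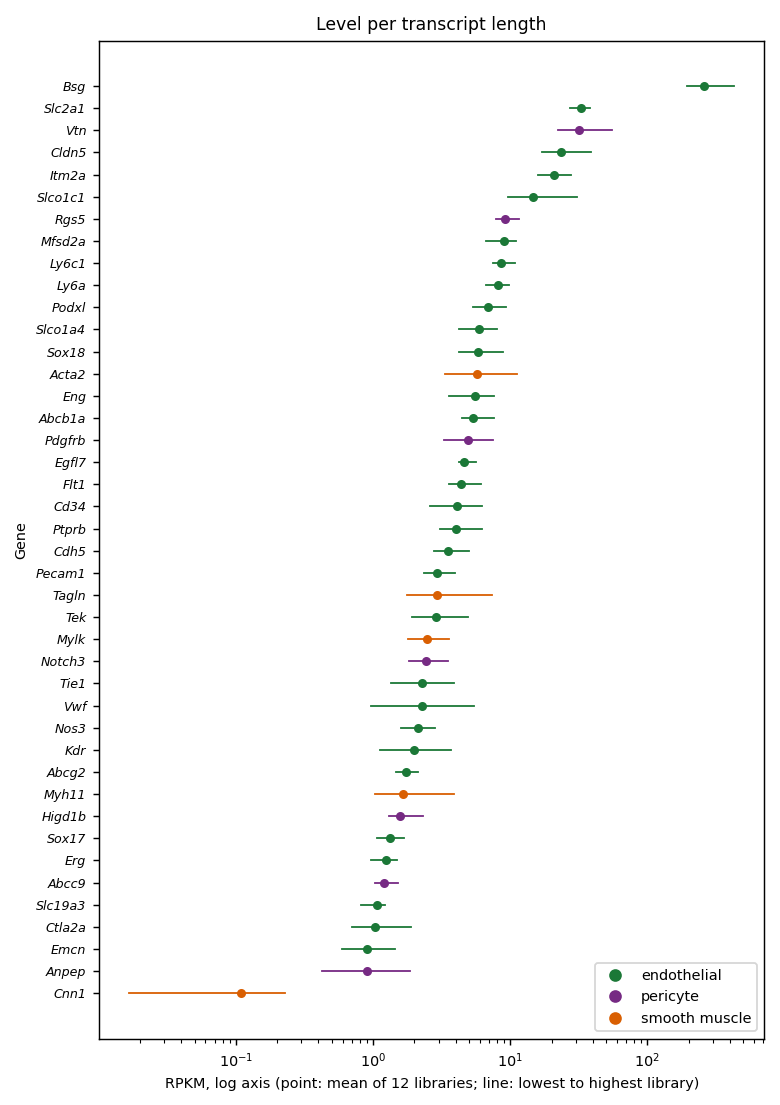
Level per transcript length of the 42 genes in RPKM on a log axis, with the mean of the 12 libraries as a point, the lowest to highest library as a line, and endothelial, pericyte and smooth muscle genes in separate colours. Bsg lies highest at 257 RPKM and Cnn1 lowest at 0.109 RPKM.

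Promoter sequences were available from the RefSeq table (GRCm38.p6) for 28 of the 42 genes, as the 250 bases before each annotated start. They are shown because ETS factors, among them ERG, bind promoters of endothelial genes. A link between these letters and the training values was not tested. The letters AGGAAG on either strand, a core form of the ETS motif, were in 17 of the 28 endothelial windows, from 14 of 20 endothelial genes with a window. The same letters were in 29.5% of all 32851 promoter windows of the table, in 0 of the 5 pericyte windows and in 0 of the 3 smooth muscle windows. Some genes have several windows that share sequence. The SOX letters ACAAT, also on either strand, were in 7 of the 28 endothelial windows and in 27.7% of all. The TATA box letters TATAAA, on either strand, were in 5 of the 28 and in 12.4% of all. The Erg match is on the strand opposite to transcription. The CArG box of smooth muscle genes was searched only in its strict form CCWWWWWWGG, where W is A or T. That form was in none of the windows of these genes and in 1.47% of all. The Acta2 window holds the near forms CCCTATATGG and CCTTGTTTGG, which have a C or G in the middle and were not counted. A match is a description of the letters and not a bound site. Below are the windows of Flt1, Eng and Slco1a4, with each AGGAAG or its reverse complement CTTCCT in capitals, and that of Cldn5, which holds neither. Flt1 lies at chr5:147726012-147726261 on the minus strand, Eng at chr2:32646345-32646594 on the plus strand, Slco1a4 at chr6:141856221-141856470 on the minus strand and Cldn5 at chr16:18776597-18776846 on the plus strand. Each is written in the direction of transcription.
Flt1: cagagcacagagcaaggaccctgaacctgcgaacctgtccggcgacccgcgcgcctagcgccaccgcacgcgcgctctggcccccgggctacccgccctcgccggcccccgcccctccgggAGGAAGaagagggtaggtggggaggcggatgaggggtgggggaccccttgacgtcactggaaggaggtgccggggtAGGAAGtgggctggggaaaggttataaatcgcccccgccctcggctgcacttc
Eng: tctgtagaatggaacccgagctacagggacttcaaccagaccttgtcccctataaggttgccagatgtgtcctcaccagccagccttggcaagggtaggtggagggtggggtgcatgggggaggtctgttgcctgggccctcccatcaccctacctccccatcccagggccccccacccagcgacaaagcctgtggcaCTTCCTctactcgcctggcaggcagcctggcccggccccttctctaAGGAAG
Slco1a4: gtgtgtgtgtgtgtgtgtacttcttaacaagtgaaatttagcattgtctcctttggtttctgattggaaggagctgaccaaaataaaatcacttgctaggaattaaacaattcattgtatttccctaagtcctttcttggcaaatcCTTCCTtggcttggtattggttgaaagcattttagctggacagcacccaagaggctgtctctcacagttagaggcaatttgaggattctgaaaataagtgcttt
Cldn5: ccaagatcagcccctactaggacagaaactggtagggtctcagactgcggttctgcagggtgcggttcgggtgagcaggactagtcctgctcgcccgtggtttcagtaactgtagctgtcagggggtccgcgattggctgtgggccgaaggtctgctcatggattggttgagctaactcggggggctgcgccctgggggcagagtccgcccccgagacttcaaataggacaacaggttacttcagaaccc

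In WT mice 40 of the 42 genes had a lower value after training than in house controls, with a median log2 fold change of -0.46 (1.38-fold lower), against -0.01 over all 15622 genes, 51.7% of which had a lower value. In KO mice 27 of the 42 had a lower value after training, with a median of -0.08, against -0.00 over all genes, 50.9% of which had a lower value. No gene of the 42 was called in either genotype by edgeR, where 0% of all genes were called, and the lowest adjusted p was 0.502 in WT mice and 1.00 in KO mice. At an unadjusted p under 0.05, 25 were lower and 1 was higher in trained WT mice, against 5.04% and 4.78% of all genes. In trained KO mice 1 was lower and 0 were higher at that level, against 2.04% and 0.973% of all genes. These are bulk tissue libraries, in which fewer cells of a type and less RNA per cell cannot be told apart.

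The 3 trained WT libraries lay below all 3 WT house controls for 23 of the 42 genes, against 7.80% of all genes, and above them for 1, Mfsd2a, against 7.01%. In KO mice trained libraries lay below all house controls for 6 (Cldn5, Pecam1, Abcb1a, Sox17, Pdgfrb and Abcc9), against 4.54% of all genes, and above for 1, Mylk, against 3.34%. The separation was below in both genotypes for 4 genes, Pecam1, Abcb1a, Sox17 and Pdgfrb. The share of all genes below in both was not computed, so this count has no background to be read against. DESeq2 called 2 of the 42 lower in trained WT mice, Nos3 (log2 fold change -0.71, SE 0.13, adjusted p = 0.00108) and Pdgfrb (-0.62, SE 0.16, adjusted p = 0.0489), where it called 0.0986% of genes lower. In the authors' deposited table, 0.0927% of genes were called lower after training in WT mice, and among them were Nos3 (log2 fold change -0.70, adjusted p = 0.0248) and Podxl (-0.47, adjusted p = 0.0437). In KO mice DESeq2 called none of the 42 after training, where it called 0.0256% of genes higher and 0.0192% lower. The authors' deposited table called none of the 42 in KO mice either, where it called 0.0307% of genes higher and 0.0409% lower.

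**Figure D2:**
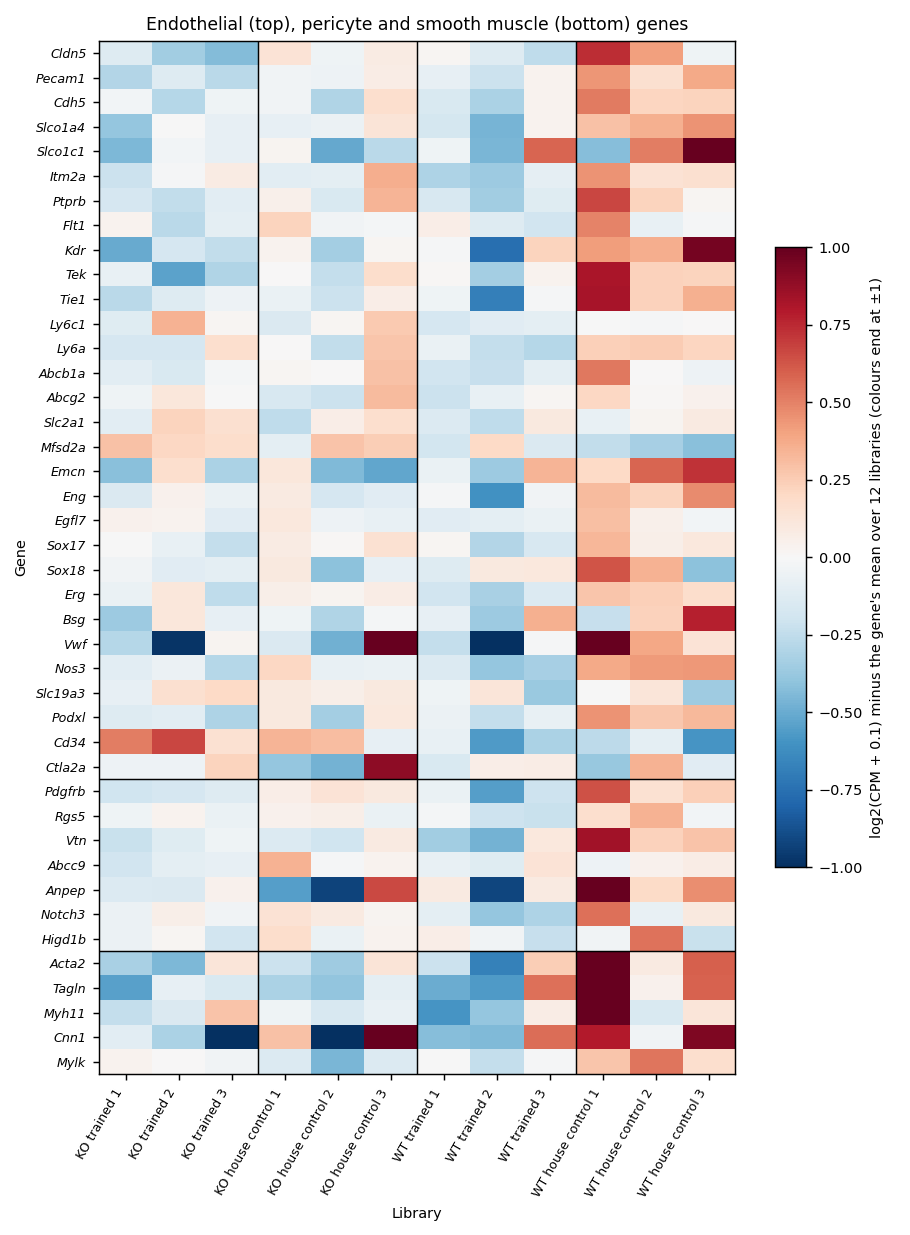
Each row is 1 gene and each column 1 library, grouped as KO trained, KO house control, WT trained and WT house control; colour is log2(CPM + 0.1) minus the gene's mean over the 12 libraries, with colours ending at ±1, and horizontal lines part endothelial, pericyte and smooth muscle genes. WT house control 1 is highest in 22 rows and WT trained 2 lowest in 18.

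Single libraries stood out. WT house control 1 was the highest of the 12 libraries for 22 of the 42 genes, against 8.10% of all genes, and WT trained 2 the lowest for 18, against 16.0% of all genes. All 3 WT house controls were above the other 9 libraries for 13 genes, against 1.59% of all genes: Pecam1, Cdh5, Slco1a4, Kdr, Tek, Tie1, Eng, Erg, Nos3, Podxl, Pdgfrb, Vtn and Mylk. When WT house control 1 and WT trained 2 were both left out, a pair chosen for these levels, so that a smaller difference follows from the choice, 40 of 42 values were below 0 in WT mice and the median was -0.29. Without the 3 house controls rich in thalamus transcripts, the WT median was -0.54 with 37 below 0. This leaves WT house control 1 as the only WT house control, and its spread is assumed to be that of the other groups. That library was the highest for 22 of the 42 genes, so the larger WT median cannot be told apart from its high level. In KO mice the median was -0.02 with 23 below 0 without those 3 house controls. It was -0.17 with 37 below 0 without the 2 KO libraries rich in striatum transcripts. No gene of the 42 was called in WT or KO mice in any of these fits. The numbers in the library titles fall into a lower run of 8 libraries and a higher run of 4. In the lower run alone, with 2 libraries a group and 41 of the genes tested, the medians were -0.51 in WT mice and -0.03 in KO mice. Every house control of that run has a lower title number than every trained library, so training and number order cannot be told apart within it. The higher run holds 1 library a group and gives no test.

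**Figure D3:**
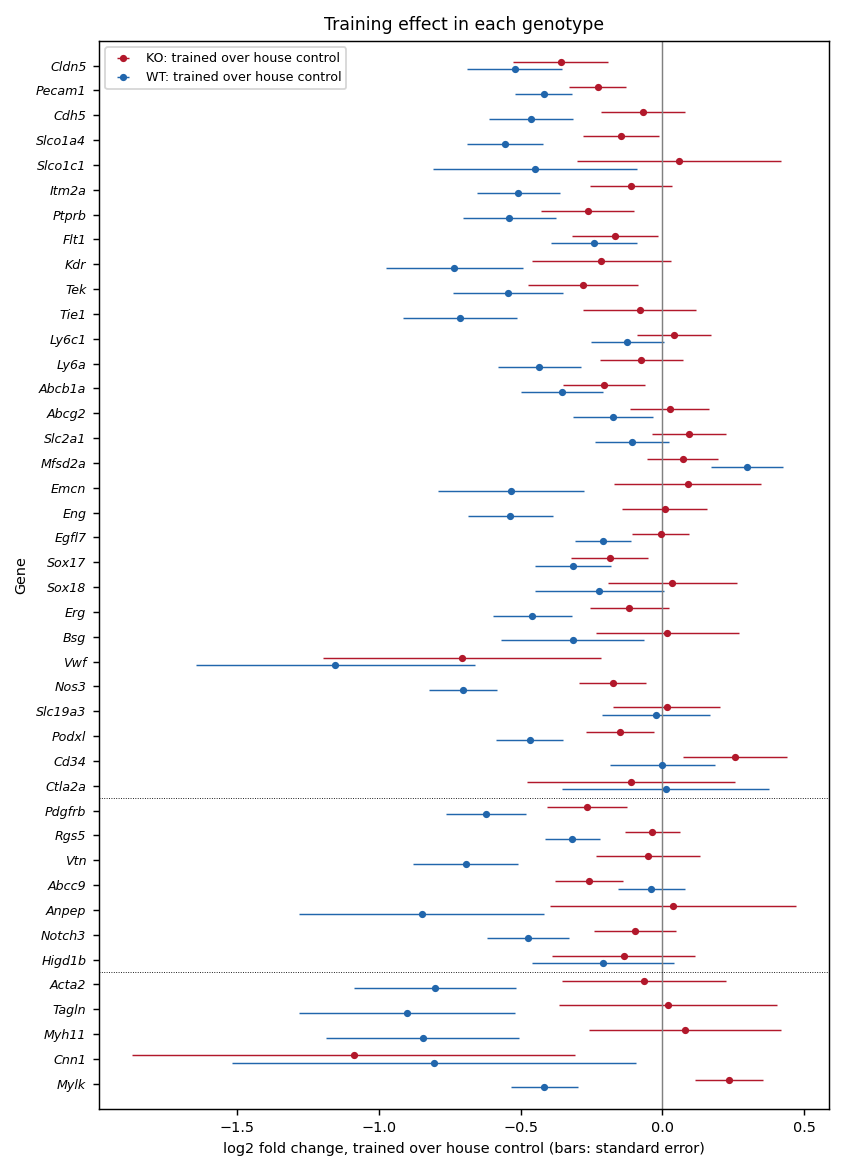
The log2 fold change of trained over house control in KO mice (red) and WT mice (blue) for each of the 42 genes, with standard errors as bars and dotted lines between endothelial, pericyte and smooth muscle genes. WT values lie left of 0 for 40 genes, and the medians are -0.08 in KO mice and -0.46 in WT mice.

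Junction and surface glycoproteins of endothelium were described by 10 genes, of which 6 had lower values after training in KO mice (median -0.07) and 10 in WT mice (median -0.47). Cldn5 had 29.8, 25.6 and 24.1 CPM in trained KO mice, against 35.9, 31.7 and 34.5 CPM in KO house controls. In WT mice it had 33.1, 29.8 and 27.3 CPM after training, against 54.5, 43.4 and 31.8 CPM in house controls. The KO groups did not overlap, and the WT groups did, through WT house control 3. The log2 fold change of Cldn5 was -0.36 (SE 0.17) in KO mice and -0.52 (SE 0.17) in WT mice, with edgeR adjusted p of 1.00 and 0.502.

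Pecam1 had 14.7, 16.4 and 14.9 CPM in trained KO mice, against 17.5, 17.4 and 18.9 CPM in KO house controls. It had 17.0, 15.5 and 18.4 CPM in trained WT mice, against 24.5, 20.1 and 23.5 CPM in WT house controls. Trained libraries were below the house controls of their genotype without overlap in both cases, by 1.17-fold in KO mice (log2 fold change -0.23, SE 0.10) and 1.34-fold in WT mice (-0.42, SE 0.10). Over both genotypes the mean training effect of Pecam1 was -0.32 (SE 0.07), with an adjusted p of 0.414 by edgeR and 0.0313 by DESeq2; for this mean edgeR called 0% of all genes and DESeq2 0.282% lower.

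Cdh5 had 14.4, 12.03 and 14.3 CPM in trained KO mice, against 14.3, 11.9 and 16.5 CPM in KO house controls. It had 13.2, 11.8 and 15.1 CPM in trained WT mice, against 21.1, 17.1 and 17.1 CPM in WT house controls. The KO groups overlapped almost entirely, and the WT groups did not overlap (log2 fold change -0.07 in KO mice and -0.46 in WT mice, SE 0.15 in both).

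Podxl, which encodes the sialomucin podocalyxin of the luminal face, had 34.0, 34.6 and 29.95 CPM in trained KO mice and 39.9, 29.4 and 40.0 CPM in KO house controls. It had 35.8, 31.6 and 35.3 CPM in trained WT mice, against 50.9, 44.8 and 46.5 CPM in WT house controls, 1.38-fold lower after training. Eng, which encodes the TGFβ co-receptor endoglin, averaged 21.4 ± 1.38 CPM in trained KO mice and 21.3 ± 2.04 CPM in KO house controls (SD, n = 3 each). It averaged 19.4 ± 4.21 CPM in trained WT mice and 28.2 ± 2.47 CPM in WT house controls. For Podxl and Eng the WT groups did not overlap and the KO groups did. The surface genes Itm2a, Emcn, Ly6c1 and Ly6a had WT values from -0.53 (Emcn) to -0.12 (Ly6c1) and KO values from -0.11 (Itm2a) to 0.09 (Emcn). Cd34, the last of the 10 and described below, had the highest values of the group, 0.26 in KO mice and -0.0004 in WT mice. It is counted as lower in WT mice, although its WT value in the authors' deposited table was 0.0016. Ly6c1 and Ly6a have close relatives in a gene cluster, so their counts are uncertain where reads could be shared.

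The 5 receptors and receptor phosphatase genes all had lower values after training in both genotypes, with a median of -0.21 in KO mice and -0.54 in WT mice. Kdr, which encodes the main VEGF receptor of endothelium, averaged 13.9 ± 1.64 CPM in trained KO mice and 16.1 ± 2.25 CPM in KO house controls. It averaged 15.6 ± 5.04 CPM in trained WT mice and 26.0 ± 6.25 CPM in WT house controls (log2 fold change -0.73, SE 0.24). Tie1, an orphan receptor that works with TEK, averaged 9.74 ± 0.736 CPM in trained KO mice and 10.3 ± 0.999 CPM in KO house controls. It averaged 9.27 ± 2.26 CPM in trained WT mice and 15.2 ± 3.48 CPM in WT house controls (-0.71, SE 0.20). For Kdr and Tie1 the WT groups did not overlap, and neither was called. Tek, the angiopoietin receptor, had -0.28 in KO mice and -0.54 in WT mice, and Flt1, a decoy VEGF receptor, had -0.17 in KO mice and -0.24 in WT mice.
Ptprb encodes the phosphatase VE-PTP, which acts on TEK and VE-cadherin. It had 46.5, 44.03 and 48.5 CPM in trained KO mice, against 53.9, 47.0 and 66.1 CPM in KO house controls. In WT mice it had 46.6, 40.9 and 47.9 CPM after training, against 83.2, 60.8 and 52.9 CPM in house controls. The groups overlapped in KO mice and not in WT mice, where WT house control 1 was highest.

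Transporters of the barrier were the group in which WT values were smallest, with a median of 0.02 in KO mice and -0.24 in WT mice over 8 genes. Slco1a4, which encodes an organic anion transporter of brain endothelium, had 28.7, 37.5 and 35.4 CPM in trained KO mice, against 35.5, 36.0 and 41.0 CPM in KO house controls. It had 33.3, 27.2 and 38.5 CPM in trained WT mice, against 46.0, 48.0 and 51.3 CPM in WT house controls, 1.47-fold lower without overlap. Abcb1a, which encodes the drug efflux pump P-glycoprotein, had lower values without overlap in both genotypes (-0.21 in KO mice, -0.35 in WT mice, SE 0.14 in both).
Slc2a1 averaged 123 ± 14.5 CPM in trained KO mice and 115 ± 17.1 CPM in KO house controls, and 108 ± 13.6 CPM in trained WT mice and 117 ± 6.58 CPM in WT house controls. Abcg2, another efflux pump, had 0.03 in KO mice and -0.17 in WT mice, and Slc19a3, a thiamine transporter, had 0.01 and -0.02.

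Mfsd2a, the transporter of lysophosphatidylcholine with docosahexaenoic acid, had values in the other direction. It had 24.6, 23.2 and 22.7 CPM in trained KO mice, against 18.8, 24.4 and 23.9 CPM in KO house controls. It had 17.7, 23.1 and 18.2 CPM in trained WT mice, against 17.0, 16.0 and 15.03 CPM in WT house controls. Trained WT libraries lay above all WT house controls, 1.23-fold higher on the fitted scale (log2 fold change 0.30, SE 0.13, edgeR adjusted p = 0.502).
Slco1c1, a thyroid hormone transporter, and Bsg varied widely among WT house controls. Slco1c1 had 53.5 CPM in WT house control 1, which was low in choroid plexus markers, and 102 and 158 CPM in WT house controls 2 and 3, which were rich in them; Bsg had 387, 531 and 778 CPM in the same libraries. Both genes are also made by choroid plexus epithelium, and its part in these values was not tested.

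Among secreted proteins, enzymes and transcription factors was the gene with the smallest unadjusted p in WT mice. Nos3, the endothelial nitric oxide synthase, had 7.998, 8.30 and 7.08 CPM in trained KO mice, against 9.95, 8.19 and 8.25 CPM in KO house controls. It had 7.85, 6.58 and 6.82 CPM in trained WT mice, against 11.3, 11.6 and 11.7 CPM in WT house controls. The KO groups overlapped, and the WT groups were apart by more than the range within either, 1.63-fold lower after training (log2 fold change -0.70, SE 0.12, edgeR adjusted p = 0.502). Leaving out each library in turn left the WT value of Nos3 between -0.79 and -0.65.
Vwf, which encodes von Willebrand factor, had the largest WT value at -1.15 (SE 0.49), with wide spread within groups. It had 26.1, 16.0 and 32.3 CPM in trained KO mice and 28.7, 22.7 and 70.3 CPM in KO house controls. It had 26.8, 15.6 and 31.4 CPM in trained WT mice and 88.1, 41.6 and 34.9 CPM in WT house controls. Erg and Sox17, endothelial transcription factors, had WT values of -0.46 and -0.31 without overlap, and Sox18 had -0.22 with overlap. Egfl7, a secreted matrix protein, had -0.01 in KO mice and -0.21 in WT mice. Ctla2a, whose close copy Ctla2b makes its count uncertain, had 2.03 to 2.47 CPM in trained KO mice, 1.49 to 4.00 CPM in KO house controls, 1.88 to 2.22 CPM in trained WT mice and 1.59 to 2.70 CPM in WT house controls.

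**Figure D4:**
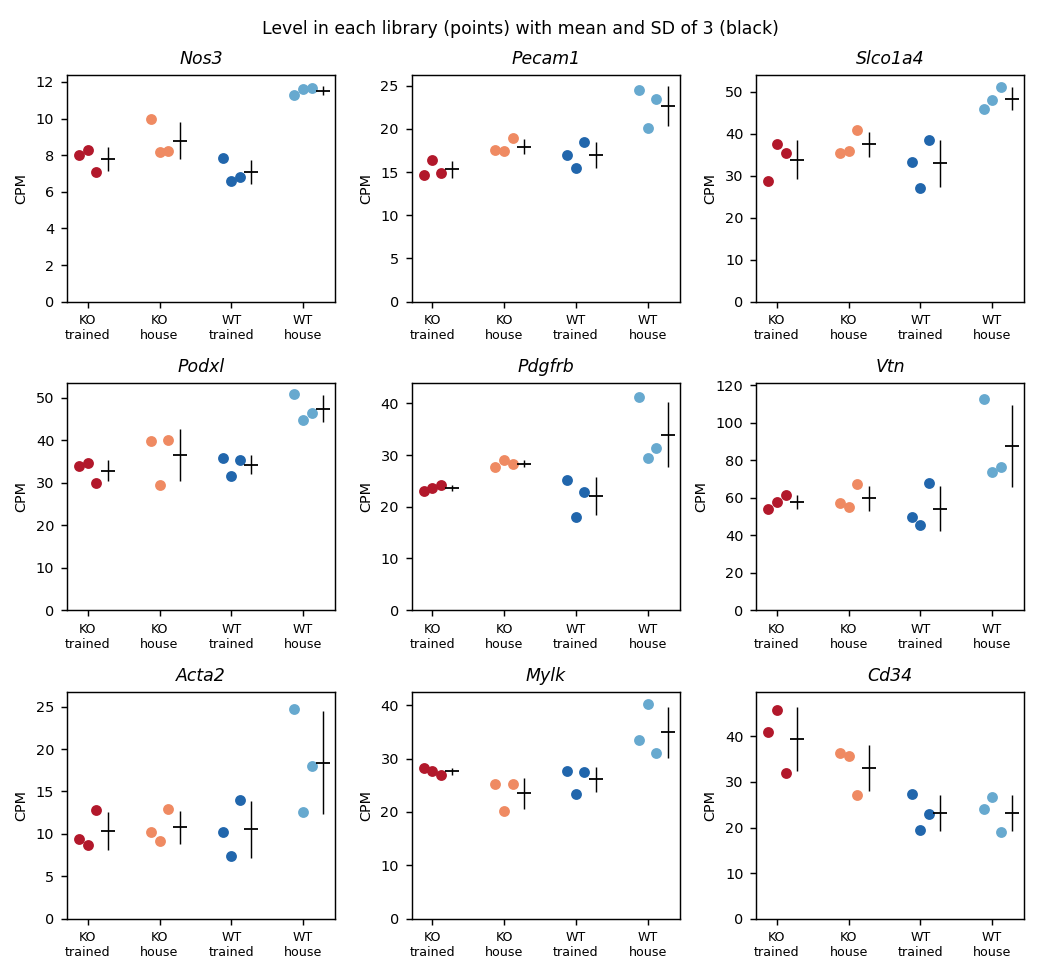
CPM of 9 genes in each of the 12 libraries as points, with the mean and SD of the 3 libraries of a group in black and every axis starting at 0; groups run KO trained, KO house control, WT trained and WT house control. The WT house controls of Nos3, at 11.3 to 11.7 CPM, lie above all other libraries, and Cd34 is higher in every KO library than the WT libraries of the same treatment.

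Pericyte genes had lower values after training for 6 of 7 in KO mice (median -0.10) and for 7 of 7 in WT mice (median -0.47). Pdgfrb had 23.0, 23.6 and 24.1 CPM in trained KO mice, against 27.7, 29.0 and 28.2 CPM in KO house controls. It had 25.3, 18.0 and 22.8 CPM in trained WT mice, against 41.1, 29.4 and 31.3 CPM in WT house controls. Both pairs of groups were apart, by 1.20-fold in KO mice (log2 fold change -0.27, SE 0.14) and 1.54-fold in WT mice (-0.62, SE 0.14). The WT value of Pdgfrb was -0.46 without WT house control 1, and -0.33 without both that library and WT trained 2. Over both genotypes its mean training effect was -0.44 (SE 0.10), with an adjusted p of 0.414 by edgeR and 0.0264 by DESeq2.

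Vtn, a matrix protein that brain pericytes secrete, had 54.0, 57.7 and 61.2 CPM in trained KO mice and 57.1, 54.8 and 67.1 CPM in KO house controls. It had 49.6, 45.2 and 67.7 CPM in trained WT mice, against 113, 73.7 and 76.5 CPM in WT house controls. The KO groups overlapped and the WT groups did not, with WT house control 1 far above the rest. Rgs5 had 40.3, 42.6 and 39.6 CPM in trained KO mice and 42.7, 43.3 and 39.6 CPM in KO house controls. It had 40.9, 36.0 and 35.7 CPM in trained WT mice and 46.7, 52.7 and 40.7 CPM in WT house controls. The groups of Rgs5 overlapped in both genotypes (-0.04 and -0.32, SE 0.10 in both).
Notch3, a receptor that maintains mural cells, had WT libraries apart (-0.47, SE 0.14). Abcc9, a subunit of the potassium channel of pericytes, was not called in either genotype. It had 8.69, 9.27 and 9.41 CPM in trained KO mice, against 12.7, 9.86 and 10.2 CPM in KO house controls. In WT mice it had 9.44, 9.15 and 10.9 CPM after training and 9.62, 10.2 and 10.4 CPM in house controls. The KO groups did not overlap and the WT groups did (log2 fold change -0.26 in KO mice and -0.04 in WT mice, SE 0.12 in both). Higd1b was measured from 25 to 56 counts per library, and Anpep, which meningeal fibroblasts also make, varied from 1.75 to 7.66 CPM.

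Smooth muscle genes had the lowest WT median of these gene groups, -0.81 with 5 of 5 below 0, against a KO median of 0.02 with 2 of 5 below 0. Cnn1, with its few counts, is included in both medians and is among the 2 below 0 in KO mice. Medians without it were not computed. Acta2 had 9.41, 8.67 and 12.9 CPM in trained KO mice and 10.2, 9.22 and 12.98 CPM in KO house controls. It had 10.2, 7.39 and 14.1 CPM in trained WT mice and 24.7, 12.6 and 18.0 CPM in WT house controls. The trained and house control libraries overlapped in both genotypes (log2 fold change -0.06 in KO mice and -0.80 in WT mice, SE 0.29 in both).
Tagln had 3.60, 4.98 and 4.75 CPM in trained KO mice and 4.22, 4.00 and 4.92 CPM in KO house controls. It had 3.72, 3.53 and 7.77 CPM in trained WT mice and 14.7, 5.43 and 8.01 CPM in WT house controls. WT house control 1 was the highest library for Acta2, Tagln and also Myh11, the smooth muscle myosin, where it had 29.3 CPM against 10.6 and 12.9 CPM in the other WT house controls. Summed over the 5 smooth muscle genes, the level was 51.5 to 59.0 CPM in trained KO mice, 43.9 to 54.9 CPM in KO house controls, 43.6 to 62.1 CPM in trained WT mice and 69.0 to 103 CPM in WT house controls.

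Mylk, the myosin light chain kinase of contractile cells, separated in opposite directions. It had 28.2, 27.7 and 26.9 CPM in trained KO mice, against 25.2, 20.1 and 25.1 CPM in KO house controls. It had 27.6, 23.4 and 27.4 CPM in trained WT mice, against 33.5, 40.1 and 30.98 CPM in WT house controls. Every trained KO library was above every KO house control (1.177-fold), and every trained WT library below every WT house control (1.33-fold).

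Whether the training effect differed between genotypes was tested as an interaction, the KO training effect minus the WT training effect. It was above 0 for 38 of the 42 genes with a median of 0.33, against -0.01 over all genes, 48.6% of which were above 0, and 0 were called, as were 0% of all genes by edgeR (adjusted p 1.00 for every member) and 0% by DESeq2. At an unadjusted p under 0.05 there were 5 (Tie1, Eng, Nos3, Vtn and Mylk), all above 0, against 0.743% of all genes. The median was 0.49 without the 3 house controls rich in thalamus transcripts, where WT house control 1 is the only WT house control left. It was 0.17 without WT house control 1 and WT trained 2. The 2 training effects rest on separate libraries, and a difference between them was not shown for any single gene.

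KO and WT mice were compared within each treatment. In house controls 36 of the 42 had a lower value in KO mice, with a median of -0.34 (1.27-fold lower), against -0.00 over all genes, 50.2% of which had a lower value. This median was -0.16 without WT house control 1 and -0.21 without KO house control 2. The KO libraries lay below all WT libraries for 15, against 6.09% of all genes, and above for 2, Mfsd2a and Cd34, against 6.94%; these are the same WT house controls that enter the WT training effect. edgeR called 0 of the 42 in house controls, where it called 0.0128% of all genes, with 14 lower and 2 higher at an unadjusted p under 0.05, against 4.56% and 6.11%. DESeq2 called Mfsd2a higher (adjusted p = 0.0468) and Mylk lower (adjusted p = 0.00381), where 1.29% of genes were called higher and 0.392% lower. None of the 42 was called for house controls in the authors' deposited table, where 0.448% of genes were higher and 0.110% lower. After training the median difference was 0.06 with 27 above 0, against 47.6% of all genes. Cd34 and Notch3 were higher in KO mice without overlap, against 7.61% of all genes, and 0 were called by edgeR, where 0.0128% of all genes were called and 1 of the 42 was higher at an unadjusted p under 0.05, against 3.74%. The median difference after training was -0.03 without WT house control 1 and WT trained 2.

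Cd34, which encodes a sialomucin of endothelial and progenitor cells, stood out from the other endothelial genes. It had 40.9, 45.7 and 31.9 CPM in trained KO mice, against 27.3, 19.4 and 23.0 CPM in trained WT mice. In house controls it had 36.4, 35.6 and 27.2 CPM in KO mice, against 24.0, 26.7 and 19.0 CPM in WT mice. KO libraries were above WT libraries of the same treatment without overlap, 1.70-fold after training and 1.42-fold in house controls. The mean genotype effect was 0.64 (SE 0.13), with an adjusted p of 0.0648 by edgeR, where 0.576% of all genes were called, of 0.0231 with the run of title numbers as a covariate, and of 0.000522 by DESeq2, where 3.56% of genes were called higher. After training alone, DESeq2 gave Cd34 an adjusted p of 0.0197, where it called 0.476% of genes higher. For trained mice the value of Cd34 in the authors' deposited table was 0.76 on the log2 scale with an adjusted p of 0.0163, where 0.574% of genes were called higher.
Mfsd2a was higher in KO mice over both treatments by 0.37 (SE 0.09), with an adjusted p of 0.0947 by edgeR and 0.00807 by DESeq2. The cell types were not separated, and the cell of origin of Cd34 transcripts was not measured.

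Other genes of the same pathways were read from 8 lists. Angiogenic and mural-recruiting ligands and partners, 22 genes, had 13 lower and 9 higher values after training in KO mice (median -0.10) and 16 lower and 6 higher in WT mice (median -0.19). Tgfb1, a ligand of endoglin-bearing receptors, had 5.17, 4.98 and 5.71 CPM in trained KO mice, against 7.65, 6.97 and 7.67 CPM in KO house controls (log2 fold change -0.49, SE 0.12). Ephb4, the ephrin receptor of veins, had 6.95, 5.02 and 6.32 CPM in trained WT mice, against 9.77, 10.97 and 12.1 CPM in WT house controls (-0.85, SE 0.20). Both pairs were apart without overlap.
The 16 Wnt genes of the barrier had 12 lower in KO mice (median -0.16) and 15 lower in WT mice (median -0.30). Reck, a co-receptor for Wnt7 ligands, had 14.4, 12.8 and 15.9 CPM in trained WT mice, against 19.4, 18.6 and 19.9 CPM in WT house controls. Of 12 further junction genes, 8 were lower in KO mice (median -0.10) and 11 in WT mice (median -0.46), with Esam, an adhesion molecule, at -0.45 (SE 0.14) in WT mice. Of 15 further transporters and receptors, 10 were lower in KO mice (median -0.08) and 12 in WT mice (median -0.30), among them the taurine transporter Slc6a6 at -0.22 and -0.30 (SE 0.10 in both).

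Endothelial activation genes, of which 10 of 12 passed the filter, had medians of -0.15 in KO mice and -0.34 in WT mice. Vcam1, a leukocyte adhesion molecule, had 28.2, 20.3 and 44.6 CPM in trained WT mice and 34.2, 46.9 and 77.9 CPM in WT house controls, with overlap. Artery genes, 10 in all, had medians of -0.20 and -0.63. The 12 further pericyte genes had medians of -0.15 and -0.54, among them Foxf2, a transcription factor of brain mural cells, with 3.76, 3.33 and 4.10 CPM in trained WT mice, against 8.33, 6.03 and 5.29 CPM in WT house controls. Further smooth muscle genes, 11 of 13 past the filter, had medians of -0.10 and -0.97, among them Myl9, a light chain of smooth muscle myosin, with 6.70, 8.55 and 10.4 CPM in trained WT mice, against 18.7, 12.7 and 11.7 CPM in WT house controls. No gene of the 8 lists was called by edgeR after training in either genotype, and Lef1, Mgp, Synpo2 and Zic1 of these lists also stand among the thalamus or leptomeningeal markers.

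Markers of other cells were read in the same libraries, and none was called after training in either genotype by edgeR (lowest adjusted p 0.502 in WT mice and 1.00 in KO mice). Leptomeningeal fibroblast markers had lower values after training for 17 of 17 in WT mice (median -1.34) and for 8 of 17 in KO mice (median 0.01). Their mean log2 CPM was 2.62 to 3.85 in trained KO mice, 1.80 to 4.25 in KO house controls, 2.06 to 4.15 in trained WT mice and 4.48 to 4.91 in WT house controls. Perivascular macrophage markers were lower for 7 of 7 in WT mice (median -1.31) and for 5 of 7 in KO mice (median -0.31). Of the leptomeningeal list, Slc6a13 had 4.37, 2.85 and 9.38 CPM in trained WT mice, against 30.3, 14.3 and 11.03 CPM in WT house controls, and no marker of either list was at 0 in any library. Summed, the leptomeningeal markers had 325 to 780 CPM in trained KO mice, 248 to 815 CPM in KO house controls, 227 to 1518 CPM in trained WT mice and 1545 to 2364 CPM in WT house controls. By mean log2 CPM WT house control 1 was the highest library for both lists as well as for the smooth muscle genes. Their part in the vascular result was not tested.

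Choroid plexus markers had medians of 0.34 in KO mice and -0.96 in WT mice, and thalamus markers -0.93 and -1.29. Summed, the choroid plexus markers had 119, 8250 and 15644 CPM in WT house controls 1, 2 and 3. In the same libraries the summed level was 1335, 1375 and 1668 CPM for the endothelial genes, which include Bsg and Slco1c1, and 350.2, 259 and 256 CPM for the pericyte and smooth muscle genes. The endothelial sums followed the order of the choroid plexus sums, and the pericyte and smooth muscle sums did not. The mean log2 CPM of the endothelial genes, in which each gene has the same weight, had the reverse order. It was 4.58, 4.47 and 4.45 in WT house controls 1, 2 and 3, so the order of the sums is not that of the endothelial genes as a set. Astrocyte markers had lower values for 11 of 11 in KO mice (median -0.29) and 10 of 11 in WT mice (median -0.18), microglia markers for 9 of 11 in each (medians -0.25 and -0.10), and oligodendrocyte markers for 10 of 10 in each (medians -0.54 and -0.66). Neuron markers were higher for 7 of 10 in KO mice (median 0.11) and 8 of 10 in WT mice (median 0.24). Their part in the vascular result was not tested either. Striatum and septum markers had medians of 0.24 and -1.17. Of 10 blood cell markers 1, Alas2, passed the filter, and the haemoglobin genes had at most 17 counts in any library.

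**Figure D5:**
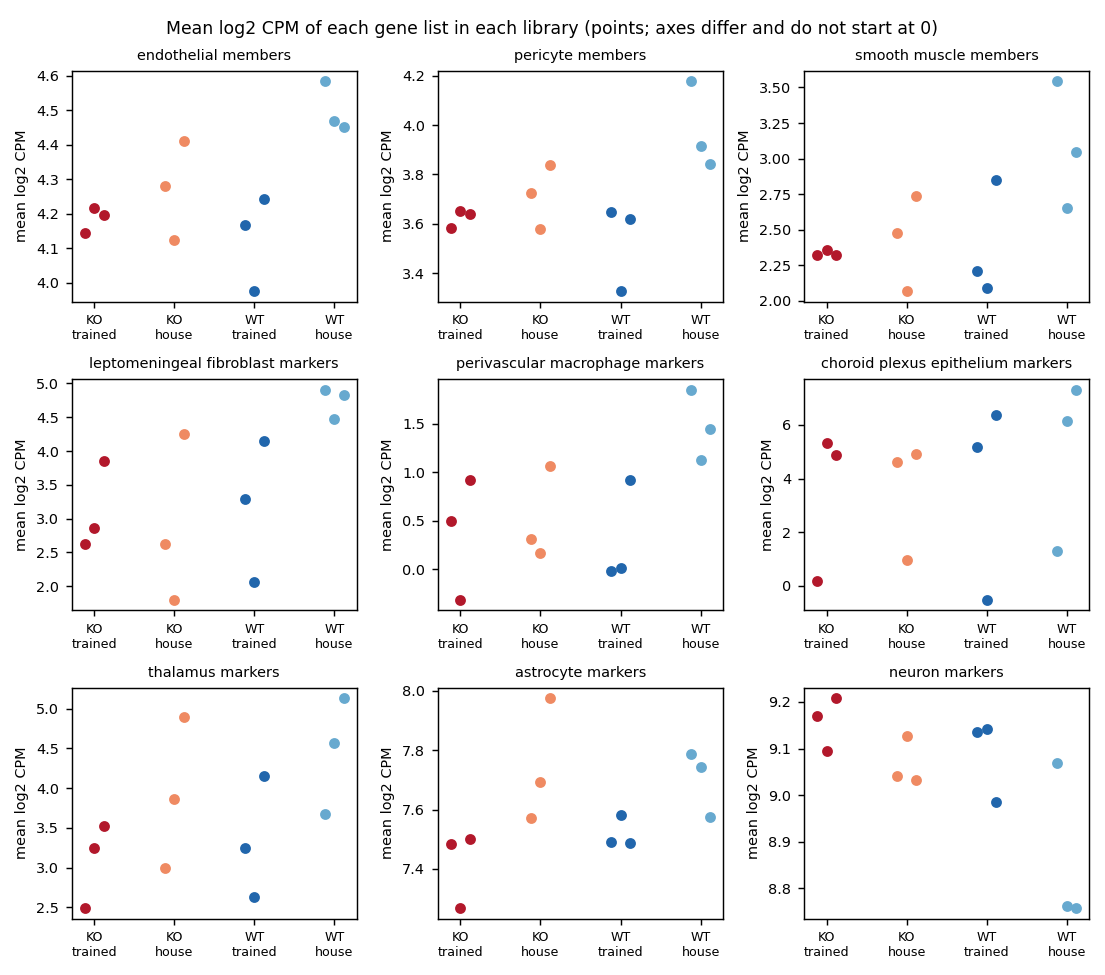
Mean log2 CPM of the endothelial, pericyte and smooth muscle genes and of 6 marker lists in each library, in the order KO trained, KO house control, WT trained and WT house control; axes differ between panels and do not start at 0. The WT house controls are above all other libraries for endothelial and pericyte genes, for leptomeningeal and for perivascular macrophage markers, and not for choroid plexus markers.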

How the data were processed

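Poly(A)-selected total RNA of dorsal hippocampus was sequenced in 12 libraries, per the labels' protocols. The authors deposited 1 file of raw counts per gene symbol for each library. The submitters' processing notes name the build mm10 and, with no roles, HTSeq 0.9.1, TopHat2 2.1.1, Bowtie2 2.3.4.2, DESeq2 1.18.1 and cutadapt 1.18. Annotation and strand setting are not given in the sources used here. Reads of overlapping or near-identical genes may be shared. The authors' deposited tables also hold a log2 fold change, its standard error and test statistic (score), p-values and a mean normalized signal per gene for 4 comparisons; the log2 fold changes and adjusted p-values are quoted where named.

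Groups were taken from the library titles. Counts were scaled by TMM, filtered with filterByExpr (minimum count 10, minimum total 15) and fitted in 1 robust quasi-likelihood model of 4 group means over 12 libraries with 8 residual degrees of freedom (R 4.3.3, edgeR 4.0.16, limma 3.58.1). In all 7 contrasts were tested two-sided with Benjamini-Hochberg adjustment over 15622 genes; standard errors are those implied by the F statistic. An exact permutation test of 3 libraries against 3 cannot go below a p of 0.1. RPKM used the union exon length of GENCODE vM21. Replicate libraries differed by a chi-square per degree of freedom of 14.9 to 105, and 0 pairs were identical. The procedure was tested on simulated data.

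All 42 genes may be named. Values in every library are given for Cldn5, Pecam1, Cdh5, Pdgfrb, Rgs5, Acta2 and Tagln and for the 6 genes with the smallest unadjusted p of each training contrast. From each other list up to 4 genes with the smallest unadjusted p were eligible. The genes and lists were chosen with earlier results of these data known. Each result was recomputed with no filter, with median-of-ratios scaling, by DESeq2 1.42.0, in a fit of the 6 libraries compared, with the run of title numbers as a covariate, in its lower run alone, on leaving out each library, and under 3 further exclusions of libraries chosen after seeing the data.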

Additional observations from a re-analysis of the deposited data

Results flagged for a closer look

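Mylk met the condition that trained libraries and house controls did not overlap in either genotype, with opposite directions in KO and WT mice. Its level was higher in all 3 trained KO libraries than in the 3 KO house controls, and lower in all 3 trained WT libraries than in the 3 WT house controls. The share of all genes that meet this condition was not computed. The KO training effect minus the WT training effect was 0.65 on the log2 scale (SE 0.17), with an adjusted p of 1.00 by edgeR's quasi-likelihood test. Over the alternatives it lay between 0.54 and 0.83, with adjusted p from 0.716 to 1.00.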

How the results depend on the processing

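No paired analysis was possible because the replicate numbers were given in accession order and pair no libraries. edgeR called 0 of the 42 genes in the 7 contrasts with median-of-ratios scaling (lowest adjusted p 0.0590), with no filter (0.0685) and on leaving out each library (0.0597), and 0 in the 4 contrasts fitted to the 6 libraries compared alone (0.482). DESeq2 called 2 lower in WT training, 3 lower in the mean training effect, 1 higher in trained KO against WT mice, 1 higher and 1 lower in KO against WT house controls, and 2 higher in the mean genotype effect; the cause was not tested. With the run of title numbers as a covariate 1 was called higher in the mean genotype effect (Cd34), and 1 (Mfsd2a, adjusted p = 0.0422 by edgeR) without WT house control 1 and WT trained 2. Without that pair, chosen for their high and low levels, the medians were -0.29 for WT training, 0.17 for the interaction and -0.16 for KO against WT house controls. The interaction median was 0.48 in the lower run of title numbers alone and 0.49 without the 3 house controls rich in thalamus transcripts, both with fewer libraries. In the latter fit WT house control 1, chosen above for its high level, is the only WT house control. On leaving out each library, the median lay between -0.17 and -0.01 for KO training, between -0.50 and -0.36 for WT training, between 0.24 and 0.40 for the interaction and between -0.37 and -0.16 for KO against WT house controls. Depth limits Cnn1, at 1 to 14 counts per library.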
